A study of Homo sapiens with 4 samples.

Results

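Complement is a cascade of blood and tissue proteins that tags cells for removal and can pierce their membranes. C4 and C3 are cleaved in turn and bind covalently to nearby surfaces, factor B joins bound C3 to form the enzyme that cleaves further C3, and host cells hold the cascade back with soluble factor I and clusterin and with the membrane proteins CD46, CD55 and CD59. Most of the circulating proteins come from the liver, but epithelial and tumor cells also make several of them, and inflammatory cytokines and interferons are known to raise the synthesis of C3 and factor B. The 9 genes described here are the activation genes C3, C4A, C4B and CFB and the regulator genes CFI, CD46, CD55, CD59 and CLU. They were chosen by gene symbol among the 20809 targets listed for each library.

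The series asks which transcripts differ after selection for drug resistance, using 2 libraries of MDA-MB-468/R and 2 of MDA-MB-468/WT. MDA-MB-468 is an established line of triple-negative breast cancer (TNBC) with basal features. MDA-MB-468/WT was the parental line, labelled WT and with no treatment, and MDA-MB-468/R was its drug-resistant subline after 6 months of adriamycin (doxorubicin), taxotere (docetaxel) and cytoxan (cyclophosphamide) at rising doses, followed by recovery. The protocol field of the parental samples names the same drugs, and their treatment and genotype labels were used instead. Whether the subline was 1 clone, and whether the replicates were separate cultures, was not stated in the sources used here, so each p-value rests on differences among the 4 libraries that may be only technical. The files hold 1 value per gene, log2 of reads per 1000000 reads on the targets (RPM) plus 1, from a single short amplicon per gene. Values were therefore compared between libraries and not between genes. The libraries held 6838875 to 7983250 recovered reads, and 3 reads corresponded to 0.376 to 0.439 RPM. The epithelial genes EGFR, EPCAM and KRT18 were abundant in all 4 libraries, whereas PTPRC, the pan-leukocyte gene, had 0 reads in all 4 and ALB, the albumin gene of hepatocytes, had at most 3 reads in any library. Not all leukocyte and macrophage markers were absent, since CD14 had 70.5 to 84.6 RPM and CD68 12.5 to 25.7 RPM.

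All 9 genes reached the filter of 10 reads in 2 libraries and were tested among 12118 genes with limma. In MDA-MB-468/R, C4A, C4B and CLU were higher and C3 and CD46 were lower, with 0.05 as the limit for the adjusted p, and CFB, CFI, CD55 and CD59 did not pass. Thus 5 of 9 passed, where 16.0% of all tested genes did (5.36% higher and 10.6% lower). The 9 genes were chosen with earlier results of these data known, and C4A and C4B may share reads. The 5 are therefore not independent, and this count is no test of the set. CD46 reached the filter in both libraries of the parental line and in 1 of the subline. The 5 genes also exceeded the 2.5-fold change that defines a DEG, which 3.26% of all tested genes did, 0.809% upwards and 2.45% downwards. The log2 fold changes of the 9 genes ran from -2.62 to 2.15 with a median of -0.13, beside a median of -0.03 over all tested genes. The groups overlapped in CFI alone. The subline was above the parental line in 3 of the 9 genes and below it in 5, beside 26.1% and 32.2% of all tested genes, or 58.3% together.

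**Figure D1:**
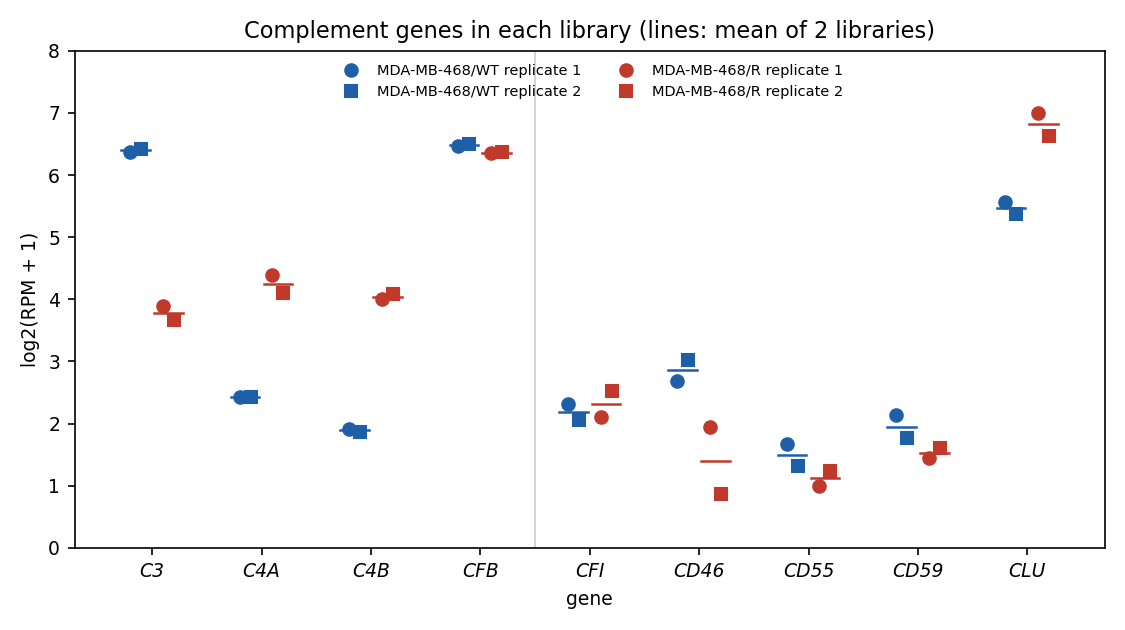
Values in log2(RPM + 1) on the y axis for the 9 complement genes on the x axis, with activation genes left and regulator genes right of the grey line. Each point is 1 library (blue MDA-MB-468/WT, red MDA-MB-468/R, circles replicate 1, squares replicate 2) and each horizontal line is the mean of 2 libraries; the red points of C4A, C4B and CLU lie above the blue points, those of C3 and CD46 lie below them, and those of CFI overlap.

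C3, the central protein on which all activation routes converge, had 81.7 and 84.6 RPM in the MDA-MB-468/WT libraries and 13.8 and 11.6 RPM in the MDA-MB-468/R libraries. The replicates of each group lay close together and the groups were far apart. The mean fell from 83.2 ± 2.06 RPM (SD, n = 2) to 12.7 ± 1.54 RPM, 6.53-fold lower in RPM. On the log2(RPM + 1) scale, which understates the change of genes at a few RPM, the change was -2.62 (standard error 0.141, adjusted p = 8.41e-05 from limma). Only 0.404% of the tested genes had a lower value of this change.

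The C4 genes moved the other way. C4A and C4B encode the isotypes of C4, the protein cleaved at the start of the classical and lectin pathways, and they lie in the MHC class III region of chromosome 6 as a duplicated pair. In GENCODE v29 their longest coding transcripts have coding sequences of equal length, 5235 bases, that differ at 13 positions (99.8% identity), and the first difference follows 2718 identical bases. The stretch of exon 26 that holds 5 of the 13 differences is shown because it encodes the residues that tell the isotypes apart, by which C4A binds preferentially to amino groups and C4B to hydroxyl groups. Capitals mark the differing bases (GRCh38, plus strand, C4A at chr6:31996061-31996111 and C4B at chr6:32028799-32028849).
C4A: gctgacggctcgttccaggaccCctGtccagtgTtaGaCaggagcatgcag
C4B: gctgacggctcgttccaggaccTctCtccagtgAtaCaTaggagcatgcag
Counted from 1 at the start codon, with the base of C4A first, these differences are C3359T, G3362C, T3370A, G3373C and C3375T. The remaining 8 lie between positions 2719 and 3856. Of all windows of 100 bases in the C4A transcript, 87.8% occur unchanged in C4B, so that a short amplicon outside the differing region would read both genes. The position of the amplicons was not used here, and the values of the pair are uncertain as measures of each gene on its own.

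**Figure D2:**
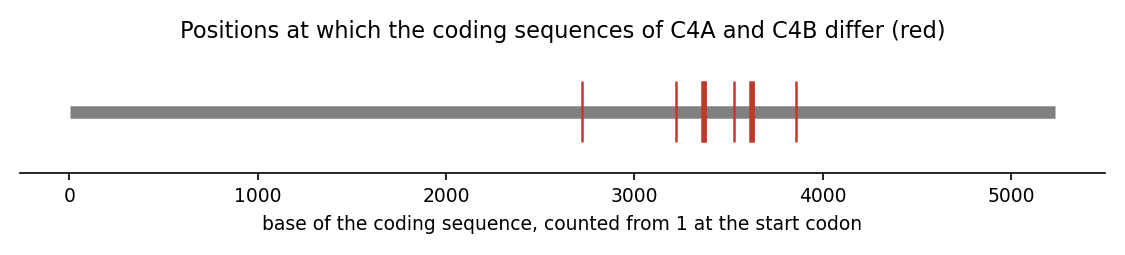
The coding sequence of C4A and C4B drawn to scale as a grey bar, with the base counted from the start codon on the x axis. Red lines mark the 13 differing positions, which all lie between base 2719 and base 3856 of 5235.

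The target listed as C4A had 4.39 RPM in each MDA-MB-468/WT library (30 and 35 reads) and 19.97 and 16.15 RPM in the MDA-MB-468/R libraries. The target listed as C4B had 2.78 and 2.63 RPM in MDA-MB-468/WT (19 and 21 reads) and 15 and 15.9 RPM in MDA-MB-468/R. Both MDA-MB-468/R libraries were well above both MDA-MB-468/WT libraries for each target. The log2 fold change was 1.82 for C4A (standard error 0.187, adjusted p = 0.00105 from limma) and 2.15 for C4B (standard error 0.183, adjusted p = 4.93e-04). In RPM the means were 4.11-fold and 5.71-fold higher. A higher value of the log2 fold change was seen in 0.314% of the tested genes for C4A and in 0.173% for C4B. Since reads may be shared, the pair was also summed and fitted as 1 feature. The sum rose from 7.10 ± 0.109 RPM (SD, n = 2) to 33.5 ± 2.05 RPM, 4.72-fold in RPM, and its log2 fold change was 2.09 (limma adjusted p = 2.84e-04).

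Within each library, log2(RPM + 1) of C4A minus that of C4B was 0.51 and 0.57 in MDA-MB-468/WT and 0.39 and 0.02 in MDA-MB-468/R. The value of MDA-MB-468/R replicate 2 was the lowest of the 4, and the groups did not overlap. The difference between the groups was -0.34 (two-sided exact permutation p = 0.333, the smallest that 2 against 2 libraries allow), and with 4 RPM added in place of 1 it was -0.15 (p = 0.667). The log2 value of C3 minus that of the summed C4 targets was 3.34 and 3.42 in MDA-MB-468/WT and -1.28 and -1.39 in MDA-MB-468/R. The genes have different amplicons, so the sign does not tell which RNA was more abundant. Only the shift between the groups can be read, and it restates the changes given above.

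CFB, the factor B gene of the same MHC class III region, had 87.6 and 89.5 RPM in MDA-MB-468/WT and 80.6 and 81.7 RPM in MDA-MB-468/R. The libraries did not overlap, but the gap was small. The log2 fold change was -0.13 with a 95% confidence interval of -0.37 to 0.12 (adjusted p = 0.472 from limma), an interval that bounds a decrease at 1.29-fold. Exact matches of 100 bases to another gene model, listed as AL645922.1, covered 77.8% of the CFB transcript. RefSeq upstream sequences were found for 5 of the 9 genes, CFB, CFI, CD46, CD55 and CD59. Those of C3, C4A, C4B and CLU are not printed.

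The 250 bases before the start of CFB are shown because the abundance of its RNA differed little between the groups whereas that of C3 fell, and those of CD46 because it was the membrane regulator with a changed level. Capitals mark, on either strand, matches to 3 simple patterns. The NF-kB type is GGG and CC with 5 bases between them (in 54.4% of 35116 upstream sequences of the same length), the GAS type is TTC and GAA with 3 bases between them (6.57%), and the ISRE type is GAAA repeated after 2 bases (3.02%). The build is GRCh38.p14, and both are read on the plus strand, CFB at chr6:31945845-31946094 and CD46 at chr1:207751788-207752037.
CFB: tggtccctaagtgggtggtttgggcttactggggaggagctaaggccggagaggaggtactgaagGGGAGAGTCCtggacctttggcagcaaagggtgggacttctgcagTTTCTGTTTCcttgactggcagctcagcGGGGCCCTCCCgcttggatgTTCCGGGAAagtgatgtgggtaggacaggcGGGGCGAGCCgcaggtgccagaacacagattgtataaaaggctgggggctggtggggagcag
CD46: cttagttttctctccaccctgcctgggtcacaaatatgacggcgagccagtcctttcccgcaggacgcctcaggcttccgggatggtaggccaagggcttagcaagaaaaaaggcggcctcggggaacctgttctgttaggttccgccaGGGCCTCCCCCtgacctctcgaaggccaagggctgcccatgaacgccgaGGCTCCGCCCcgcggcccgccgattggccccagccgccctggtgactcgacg
The CFB sequence held 4 matches of the NF-kB type, of which 2 overlap each other, and 1 match each of the GAS type, TTCCGGGAA, and of the ISRE type, TTTCTGTTTC on the opposite strand. The CD46 sequence held 3 matches of the NF-kB type, 2 of them overlapping, and none of the others. These matches describe letters only, and no binding was measured.

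Among the regulators, CLU was higher and CD46 lower. CLU encodes clusterin, a secreted chaperone that binds the terminal complex and keeps it out of membranes. It had 46.5 and 40.6 RPM in MDA-MB-468/WT and 127 and 98.0 RPM in MDA-MB-468/R. The lower MDA-MB-468/R library was still more than the higher MDA-MB-468/WT library, although the spread within MDA-MB-468/R was wider than the counting error of its reads (118.8 to 135.6 RPM and 91.0 to 105.4 RPM, exact 95% Poisson intervals). The mean rose from 43.6 ± 4.14 RPM (SD, n = 2) to 113 ± 20.5 RPM, and the log2 fold change was 1.34 (limma adjusted p = 0.00169, standard error 0.154). This is 2.53-fold on the log2(RPM + 1) scale, just above the 2.5-fold threshold for a DEG, and its 95% confidence interval of 0.981 to 1.699 includes that threshold. Without MDA-MB-468/WT replicate 2 the log2 fold change was 1.25 and the limma adjusted p was 0.0553, and without MDA-MB-468/R replicate 1 the change was 1.16, under the 2.5-fold threshold.

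The membrane regulators were at low values in this assay. CD46 encodes a cofactor for the cleavage of C3b and C4b by factor I, and it had 5.41 and 7.17 RPM in MDA-MB-468/WT (37 and 57 reads) and 2.86 and 0.815 RPM in the subline (20 and 6 reads). The groups did not overlap, and the MDA-MB-468/R libraries differed from each other more than those of any other gene of the set on the log2 scale. The log2 fold change was -1.45 (95% confidence interval -2.29 to -0.61, adjusted p = 0.0345 from limma). This call rested on single libraries, since the adjusted p was 0.0947 without MDA-MB-468/R replicate 2, where the log2 fold change was -0.91, 0.175 without MDA-MB-468/WT replicate 1 and 0.299 without MDA-MB-468/WT replicate 2. It was also 0.0510 with no filter on low values.

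CD55, which speeds the decay of the enzymes that cleave C3, had 2.18 and 1.497 RPM in MDA-MB-468/WT and 1 and 1.36 RPM in MDA-MB-468/R, from 7 to 15 reads per library. CD59, which blocks the assembly of the membrane pore, had 3.38 and 2.39 RPM in MDA-MB-468/WT and 1.71 and 2.05 RPM in MDA-MB-468/R, from 12 to 23 reads. In both genes each MDA-MB-468/R value was under each MDA-MB-468/WT value, but the counting intervals of the libraries overlapped. The log2 fold change was -0.38 for CD55 (95% confidence interval -0.96 to 0.21, adjusted p = 0.355 from limma) and -0.42 for CD59 (-0.98 to 0.14, adjusted p = 0.277). The intervals allow a decrease of up to 1.95-fold and 1.97-fold on this scale and do not exclude a difference of 0.

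CFI encodes factor I, the protease that inactivates C3b and C4b with the help of cofactors such as CD46. It had 3.96 and 3.14 RPM in MDA-MB-468/WT and 3.29 and 4.78 RPM in MDA-MB-468/R, from 23 to 35 reads, and the groups overlapped. The log2 fold change was 0.14 (95% confidence interval -0.42 to 0.69, adjusted p = 0.749 from limma), and it was -0.08 without MDA-MB-468/R replicate 2. Windows of 100 bases of its transcript occurred in 1 other gene model, AC126283.2, for 71.1% of its length. In CD59 this share was 7.06%, and in C3, CD46, CD55 and CLU it was 0.

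**Figure D3:**
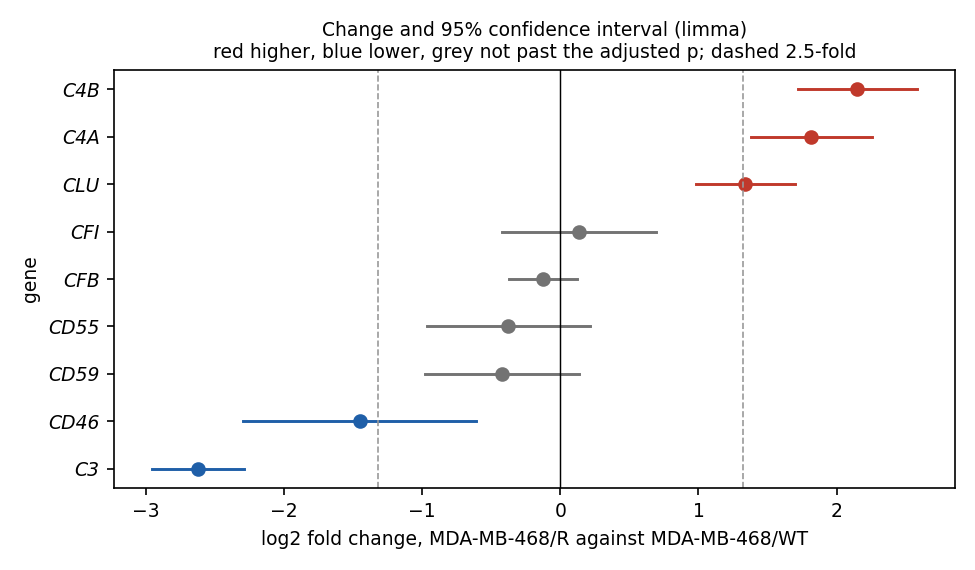
Log2 fold change (MDA-MB-468/R minus MDA-MB-468/WT) on the x axis for the 9 complement genes on the y axis, as points with 95% confidence intervals from limma. Red genes were higher, blue genes lower and grey genes did not pass an adjusted p of 0.05; dashed lines mark 2.5-fold. C4B, at 2.15, and C3, at -2.62, lie at the ends.

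Most other genes of the cascade were not detected or nearly so. Of 53 further complement genes listed, 52 had a target, 27 of these had 0 reads in all 4 libraries, and only 10 were tested. The lectin pathway genes, which start the cascade on sugar patterns, had at most 11 reads in any library, and the terminal pathway genes other than C5 had at most 2. Of the 10 tested genes, 2 were higher, 2 were lower and 6 did not pass, with a median log2 fold change of 0.20. Among all tested genes, 5.36% were higher and 10.6% lower. C1R and CR2 reached 10 reads only in the group where they were higher, and ITGB2 in both libraries of that group and 1 of the other, so such counts follow in part from the filter.

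The lower genes were ITGB2 and C1R. ITGB2, the beta chain shared by the complement receptors CR3 and CR4 and other leukocyte integrins, had 11.4 RPM in each MDA-MB-468/WT library and 1.71 and 0.959 RPM in MDA-MB-468/R (-2.43 on the log2 scale, limma adjusted p = 7.64e-04). Its partner chain genes ITGAM and ITGAX had at most 5 reads in any library. C1R, a protease of the first component of the classical pathway, had 2.78 and 1.62 RPM in MDA-MB-468/WT and 0.283 and 0.682 RPM in MDA-MB-468/R, or 19, 13, 2 and 5 reads. Its adjusted p was 0.0410, and it rose to 0.161 without MDA-MB-468/R replicate 1 and 0.0982 without replicate 2. Without a library of the parental line it missed the filter. The higher genes were C1QBP, a mitochondrial protein that also binds the globular heads of C1q, with 241 and 223 RPM in MDA-MB-468/WT and 289 and 349 RPM in the subline, and CR2, the receptor for C3d on B cells, with 3 and 2 reads against 10 and 12. Their adjusted p was 0.0434 and 0.0446, and CR2 no longer passed without either MDA-MB-468/WT library, nor C1QBP without either MDA-MB-468/WT library or MDA-MB-468/R replicate 2. With the replicate number as a block, the calls of C1R, C1QBP and CR2 were lost (adjusted p = 0.0613, 0.0775 and 0.0762).

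**Figure D4:**
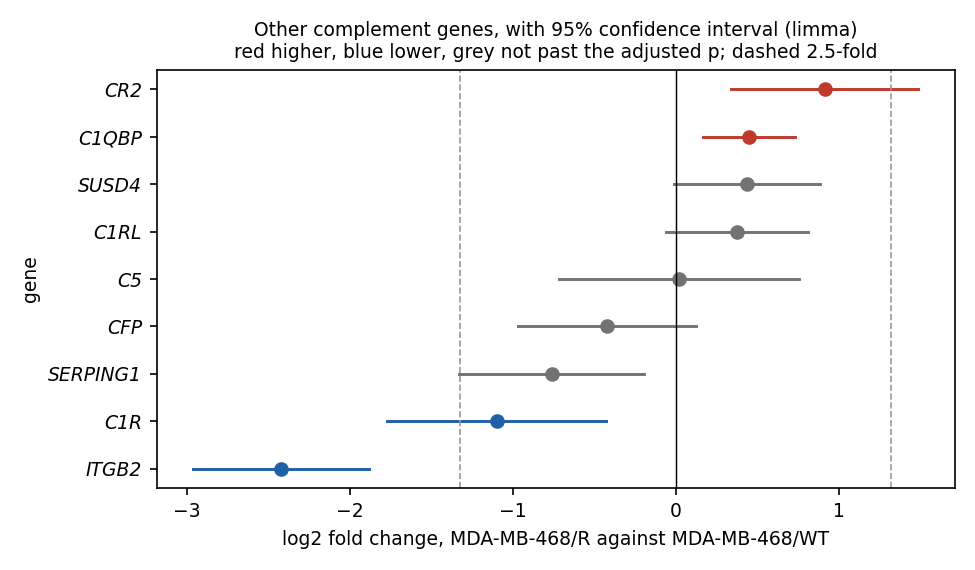
Log2 fold change (MDA-MB-468/R minus MDA-MB-468/WT) on the x axis for 9 of the 10 further complement genes that were tested, on the y axis, with 95% confidence intervals from limma. Red and blue genes passed an adjusted p of 0.05, grey genes did not, and dashed lines mark 2.5-fold; ITGB2, at -2.43, lies beyond it.

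Genes that work with this set or lie near it gave the following values. CD55 and CD59 are held in the membrane by a GPI anchor, and of 25 tested genes of GPI anchor synthesis and transfer, 23 did not pass, PIGA was lower and GPAA1 was higher. Over all tested genes the shares were 10.6% lower and 5.36% higher. PIGA, a subunit of the enzyme of the first step, had 9.63 and 14.1 RPM in MDA-MB-468/WT and 4.98 and 3.82 RPM in MDA-MB-468/R (-1.24 on the log2 scale, limma adjusted p = 0.0136). GPAA1, a subunit of the complex that attaches the anchor, had 82.3 and 87.0 RPM in MDA-MB-468/WT and 167 and 135 RPM in MDA-MB-468/R (0.82, limma adjusted p = 0.00669).

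Of the neighbours of CFB and the C4 pair in the MHC class III region, none of the 7 tested passed with limma (16.0% of all tested genes did), with log2 fold changes of -0.10 to 0.38. At an unadjusted p of 0.05 DXO alone passed and was higher (12.2% of all tested genes were higher by this rule), with limma-voom 0 passed (5.44% of all higher), and with the random sampling model, which takes no account of the spread between replicates, 4 were higher (24.0% of all). The 7 include NELFE, SKIV2L, DXO and STK19, which lie between CFB and C4A. Of 4 tested genes near CD46 and CD55 on the long arm of chromosome 1, PLXNA2, a semaphorin receptor gene, was lower (-0.84, limma adjusted p = 0.00503), CR2 was higher as above, and 2 did not pass. Over all tested genes 10.6% were lower and 5.36% higher.

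Of 12 tested genes for cytokines, receptors and transcription factors known to drive complement synthesis, 4 were lower (10.6% of all tested genes were) and 8 did not pass, with a median log2 fold change of -0.36. The number higher was 0 with limma, also at an unadjusted p of 0.05, 0 with limma-voom and 0 with the random sampling model. The number lower was 7 at an unadjusted p of 0.05, where 19.1% of all tested genes were lower, 4 with limma-voom (11.0% of all) and 9 with the random sampling model (29.4% of all). IL6, a cytokine that induces acute-phase proteins, had 6.01 and 5.02 RPM in MDA-MB-468/WT and 0.717 and 0.959 RPM in MDA-MB-468/R (-1.83 on the log2 scale, limma adjusted p = 0.00234). It reached 10 reads in the parental libraries alone (41 and 40 against 5 and 7), so its direction follows in part from the filter. IRF1, an interferon-induced transcription factor, had 69.0 and 65.3 RPM against 32.8 and 19.0 RPM (-1.39, adjusted p = 0.00840), and the chains of the interferon gamma receptor were lower by less, IFNGR1 with -0.67 and IFNGR2 with -0.49. STAT3, NFKB1, RELA, CEBPB and CEBPD did not pass. The 4 genes that passed had the sign of C3 and CD46 and the opposite of that of C4A, C4B and CLU, while CFB did not pass. The part of these 4 genes in the change of the complement genes was not tested.

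Markers of cells other than the epithelial line were also followed, because macrophages, fibroblasts and hepatocytes make complement proteins. In bulk RNA, fewer cells of a type and less RNA per cell cannot be told apart. Of the 8 leukocyte and macrophage markers, PTPRC, CD3E and MS4A1 were at 0 in all libraries. The summed level of this list was 114 and 115 RPM in MDA-MB-468/WT and 89.9 and 86.5 RPM in MDA-MB-468/R, most of it from CD14 (83.4 and 84.6 RPM against 71.5 and 70.5 RPM). CD68, a lysosomal protein rich in macrophages, was lower (-0.83 on the log2 scale, limma adjusted p = 0.0163). Of the 6 fibroblast markers, DCN and PDGFRB were at 0, and the summed level was 17.0 and 18.1 RPM in MDA-MB-468/WT and 14.0 and 11.8 RPM in MDA-MB-468/R. Most of it came from COL1A1 (16.9 and 17.5 RPM against 13.8 and 10.5 RPM), which did not pass. The 4 hepatocyte markers together gave 0 and 0.375 RPM in MDA-MB-468/WT and 0.434 and 0.133 RPM in the subline, and TTR was at 0. Of the 4 endothelial markers VWF was at 0, and CDH5 (-1.80, 18 and 22 reads against 0 and 1) and KDR (-0.84) were lower, where CDH5 reached the filter through the parental libraries alone. Of the line's own 9 epithelial markers, KRT5, KRT6A and KRT17 were lower (-0.77, -1.18 and -1.22). The other 6, EGFR, KRT14 (0.04), KRT8, KRT18, EPCAM and CDH1, did not pass. Of all tested genes 10.6% were lower, the share to read beside each of these marker lists. Of the receptors absent in triple-negative tumors, PGR had at most 3 reads and ESR1 at most 22. ERBB2 had 9.63 and 6.89 RPM in the parental libraries and 13.4 and 10.5 RPM in the subline (0.49, limma adjusted p = 0.178). The part of such cells in the changes of C3, C4A, C4B and CLU was not tested.

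Across the other tests, filters, scalings and pseudocounts, the replicate block and the fits with 1 library left out, C3, C4A and C4B passed in all 12 alternatives each and CLU in 11 of 12. CD46 passed in 7 of 11, and CFB, CFI, CD55 and CD59 passed in none.

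**Figure D5:**
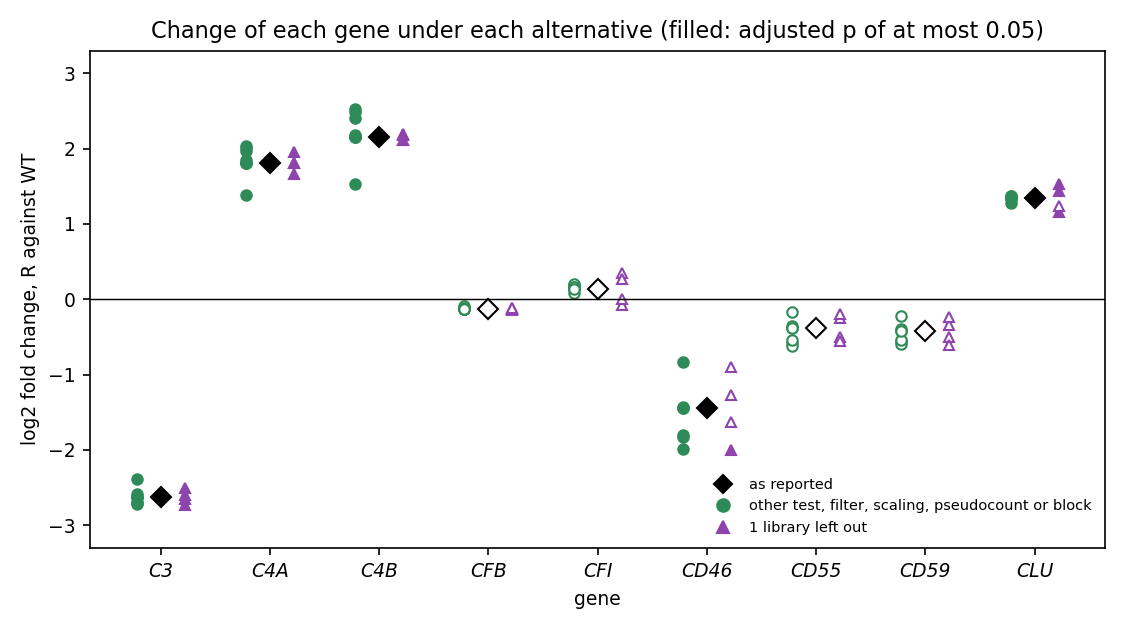
Log2 fold change (MDA-MB-468/R minus MDA-MB-468/WT) on the y axis for the 9 complement genes on the x axis, as reported (black diamonds), under other tests, filters, scalings, pseudocounts or the replicate block (green circles) and with 1 library left out (purple triangles). Filled symbols have an adjusted p of at most 0.05. C3 ranged from -2.74 to -2.38, C4A from 1.39 to 2.04 and C4B from 1.54 to 2.52, and CFI crossed 0.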

How the data were processed

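Libraries were made by the authors from total RNA with an Ion AmpliSeq transcriptome kit, and the methods name the Torrent Mapping Alignment Program against the targeted transcripts and DEGSeq for DEGs. The submitters' processing notes list Bowtie2, bedtools and edgeR. The genome build is not given in the sources used here. The authors deposited log2 values rounded to 2 decimals. Since 2 to the power of each value minus 1 summed to 999854 to 1000057 per library, they are log2(RPM + 1). Reads were recovered from the steps between low values, and 100% of the values of up to 20 reads were whole within 0.1. Intervals cover counting error only, since PCR reads without molecular identifiers are not independent molecules.

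The design had named limma on the log2 values, and limma 3.58.1 in R 4.3.3 was used (1 coefficient per group and a spread moderated along mean level) on 12118 genes with at least 10 reads in at least 2 libraries, with 2 residual and 5.40 prior degrees of freedom, Benjamini-Hochberg adjustment over all of them, and DEGs defined by a limit of 0.05 on the adjusted p and 2.5-fold. It was also run on simulated data with the same replicate spread in both groups, unlike these libraries, and no result here rests on that run. The 9 genes, the lists and the naming rule were chosen with earlier results of these data known. All 9 genes are named, with each further complement gene that passed and up to 4 passing members of every other list by size of change. Genes beyond that rule (among them ITGAM, ITGAX, the neighbours between CFB and C4A and the markers) were named after their values were seen. Motifs and sequences were chosen likewise. Some members of the lists are not reported here. Alternatives were limma-voom, a re-implemented random sampling model as in DEGSeq, other filters, RLE scaling, 4 or 0.25 RPM added, the replicate number as a block and leaving out each library. Sequences came from GENCODE v29 (GRCh38) and RefSeq (GRCh38.p14).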

Additional observations from a re-analysis of the deposited data

How the results depend on the processing

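The genes of the set that were higher by adjusted p numbered 3, C4A, C4B and CLU, under other tests, filters, scalings and pseudocounts and were 2 to 3 with 1 library left out. The 2 lower genes were 1, C3 alone, with no filter on low values and with at least 50 reads in 2 libraries, where CD46 was not tested, and 1 to 2 with 1 library left out. Counted as DEGs, the 3 higher genes were 2, without CLU, with 4 RPM added. The lower DEGs were 1, C3 alone, with no filter on low values, with at least 50 reads in 2 libraries and with 4 RPM added. With 1 library left out, the log2 fold change ran from 1.155 to 1.525 for CLU and from -1.995 to -0.905 for CD46. The further complement genes that were higher, 2 as reported, were 5 with the random sampling model, which takes no account of the spread between replicates, 1 with the stricter filter, 1 with 4 RPM added, 0 with the replicate block and 0 to 1 with 1 library left out. The lower ones, also 2, were 1 with the stricter filter, with 4 RPM added, with the replicate block and with each library left out. Over all genes, the random sampling model called 2905 higher and 3563 lower, against 649 and 1290. With a library of MDA-MB-468/WT left out, 72 to 77 were higher and 131 to 143 lower, and without one of MDA-MB-468/R 686 to 736 and 1201 to 1312. In those fits the lone library is assumed to vary like the other group. For the 9 genes, 99 of 105 values kept their direction and their side of the threshold, 5 lost their call and CFI, at -0.08 to 0.35 with 1 library left out, reversed to -0.08 without MDA-MB-468/R replicate 2. C5, at -0.40 to 0.435 with 1 library left out, reversed to -0.004279 with limma-voom, to -0.40 without MDA-MB-468/R replicate 2 and to -0.15 without MDA-MB-468/WT replicate 1. The cause of these differences between settings was not tested. Same-numbered libraries did not deviate together (r = 0.00868 across genes), and the labels name no shared batch. With the replicate block 497 genes were higher and 1114 lower, and no call of the 9 genes changed. RLE scaling moved the median of all tested genes from -0.03 to near 0. At 7 to 23 reads per library, CD55 and CD59 limit what could be seen.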

Other observations

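C3, C4A, C4B and C5 belong to the family of alpha-2-macroglobulin, whose members trap proteases or bind surfaces. Of the further members, 4 were tested, including C5, and 3 passed, where 16.0% of all tested genes did. A2M, the family's protease inhibitor, had 4.98 and 8.13 RPM in MDA-MB-468/WT and 12.55 and 11.996 RPM in MDA-MB-468/R (0.85 on the log2 scale, limma adjusted p = 0.0496). CPAMD8 had 5.87 RPM in each MDA-MB-468/WT library and 11.3 and 9.93 RPM in MDA-MB-468/R (0.76, adjusted p = 0.0307). CD109, a GPI-anchored member of the cell surface, had 117 and 106 RPM in MDA-MB-468/WT and 62.1 and 65.7 RPM in MDA-MB-468/R (-0.79, adjusted p = 0.00463).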
